A study of Mus musculus with 35 samples.

Results

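The folding machinery of the endoplasmic reticulum (ER) and the unfolded protein response that adjusts it were followed as 36 genes in the amygdala of female mice. The genes were a set list of ER sensors, chaperones, disulfide enzymes, lectins, degradation factors and secreted stress factors, matched by symbol to Ensembl identifiers, and all 36 were found among the 52636 genes counted. The set holds Edem1 and Hyou1, and the question was whether these 2 genes differed between the strains alone or together with the rest of the response. The members were chosen with earlier results of these data known. RNA-seq counts were at hand from 35 libraries of 19 mice, either C57BL/6J, an inbred strain, or B6D2F1N, a hybrid of C57BL/6 and DBA/2 mice. The mice lived in standard housing or, from post-natal day 77, in enriched housing with a playground for 1 h per day. Every group, the standard one included, began training for a judgement bias task on post-natal day 70, trained for 37 to 90 days and was tested for 5 days, so no group was untrained. Some mice were labelled optimist or pessimist by that task. All optimists came from standard and most pessimists from enriched housing, so housing and bias label cannot be fully told apart. Each library came from laser-captured cells of the portion labelled anterior or posterior amygdala. In the anterior portion there were 4 C57BL/6J and 5 B6D2F1N libraries from standard housing, and 2 and 5 from enriched housing. In the posterior portion the numbers were 4 and 5 from standard housing, and 4 and 6 from enriched housing. Both portions were at hand for 16 mice, 6 C57BL/6J and 10 B6D2F1N.

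Proteins that enter the secretory pathway are folded in the ER by Hspa5 (BiP), Hsp90b1 (GRP94) and their partners, are joined by disulfide bonds through the Pdia enzymes and Ero1 oxidases, and, when glycosylated, are held by the lectins Canx and Calr until folded. Glycoproteins that fail are trimmed of mannose by the Edem proteins and handed to Sel1l and Syvn1 for removal to the cytosol. When unfolded protein builds up, the sensors Ern1 (IRE1), Eif2ak3 (PERK) and Atf6 signal to the nucleus through Xbp1, Atf4 and Atf6 itself, and many genes of the folding machinery rise together. By role the members were 8 sensors and transducers (Ern1, Eif2ak3, Atf6, Xbp1, Atf4, Ddit3, Trib3 and Mbtps1), 7 of the HSP70 and HSP90 system (Hspa5, Hsp90b1, Hyou1, Dnajb9, Dnajb11, Dnajc3 and Sdf2l1) and 7 of disulfide formation (P4hb, Pdia3, Pdia4, Pdia6, Ero1l, Ero1lb and Creld2). The rest were the lectins Canx and Calr, 10 factors of ER-associated degradation (Edem1, Edem2, Edem3, Sel1l, Syvn1, Herpud1, Derl1, Derl2, Derl3 and Selenos), and the secreted factors Manf and Cdnf. Neurons rely on this machinery for receptors, channels and secreted peptides.

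Promoters of the members were searched for the ER stress response element, to which Atf6 and Xbp1 are known to bind. It was searched as CCAAT, 9 bases of any kind, then CCACG, on both strands, from 250 bases before to 50 bases after each RefSeq gene start (GRCm38.p6). Of the 36 members 32 had such a window, and 10 of the 32 held the element: Calr, Canx, Creld2, Derl3, Dnajc3, Ero1lb, Hsp90b1, Hspa5, Pdia6 and Syvn1. Of all 27025 genes with a window 37 held it, 0.137%. A shorter relative, ATTGG, 1 base, then CCACG, was in the windows of Dnajb11 and Herpud1 and in those of 0.0444% of all genes. The windows of Hspa5, Hsp90b1 and Creld2 are shown because these genes held the element and the results on variation between mice turn on them, and that of Edem1 because its level separated the strains. Capitals mark the element on either strand, and the Edem1 window held neither element. Members without a window were Atf6, Derl1, Hyou1 and Manf.
Hspa5: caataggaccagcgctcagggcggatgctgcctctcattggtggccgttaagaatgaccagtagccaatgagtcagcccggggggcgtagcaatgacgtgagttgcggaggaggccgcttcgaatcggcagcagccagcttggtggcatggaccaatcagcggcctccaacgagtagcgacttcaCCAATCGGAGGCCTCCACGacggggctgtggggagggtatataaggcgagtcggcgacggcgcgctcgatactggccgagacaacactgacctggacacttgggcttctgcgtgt
Hsp90b1: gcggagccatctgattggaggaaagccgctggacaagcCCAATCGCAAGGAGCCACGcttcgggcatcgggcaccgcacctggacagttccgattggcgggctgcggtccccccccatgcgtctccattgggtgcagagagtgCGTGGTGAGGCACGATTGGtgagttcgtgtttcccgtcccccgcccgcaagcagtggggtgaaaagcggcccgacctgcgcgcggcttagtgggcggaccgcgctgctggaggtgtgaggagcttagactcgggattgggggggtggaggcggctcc
Creld2: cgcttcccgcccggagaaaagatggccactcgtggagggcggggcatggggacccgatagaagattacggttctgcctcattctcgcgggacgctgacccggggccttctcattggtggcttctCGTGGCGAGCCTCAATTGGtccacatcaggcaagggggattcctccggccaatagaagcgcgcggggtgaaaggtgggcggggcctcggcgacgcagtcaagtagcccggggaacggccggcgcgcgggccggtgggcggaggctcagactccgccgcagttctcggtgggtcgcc
Edem1: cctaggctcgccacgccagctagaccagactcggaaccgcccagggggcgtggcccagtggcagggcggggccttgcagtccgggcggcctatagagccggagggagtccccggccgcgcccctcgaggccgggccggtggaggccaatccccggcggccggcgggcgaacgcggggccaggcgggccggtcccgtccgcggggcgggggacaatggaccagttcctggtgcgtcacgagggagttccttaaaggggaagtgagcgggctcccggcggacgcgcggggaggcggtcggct
In the Hspa5 window, chr2:34771840-34772139 on the plus strand, the element ran from 65 to 47 bases before the start. The Hsp90b1 window, chr10:86705395-86705694 on the minus strand, held it 2 times, once on each strand. The Creld2 window, chr15:88819396-88819695 on the plus strand, held it once, on the opposite strand. The Edem1 window lay at chr6:108828391-108828690 on the plus strand. These are matches of letters and do not say that a factor binds there.

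The library totals ran from 16938534 to 27352623 counts, and a library detected, with 1 count or more, between 18580 and 25531 genes. Xist, the RNA of the inactive X chromosome, was counted in every library but those of 1 B6D2F1N mouse from standard housing (replicate 1 in both portions), which was labelled female like the rest. Results that turned on this mouse are also given without it. Counts of Nnt, whose C57BL/6J allele is deleted in part, ran from 14 to 117 in C57BL/6J and from 23 to 155 in B6D2F1N libraries and did not separate the strains. All 36 members were tested in every comparison, and 34 had a count in every library. The exceptions were Trib3, a pseudokinase induced late in ER stress, with a count in 26 libraries, and Cdnf, a secreted neurotrophic factor, with a count in 31. Windows of 72 bases along the transcripts of 10 members matched another annotated gene with at most 2 mismatches, most for Ero1lb (18.1% of windows), Dnajb9 (16.4%) and Derl1 (9.2%), whose values are therefore less certain. For Eif2ak3 it was 6.45%. None of the windows of Edem1 or Hyou1 did so, and no annotated gene overlapped their exons. Edem1 lies at chr6:108828641-108859356 on the plus strand and Hyou1 at chr9:44379490-44392369 on the plus strand (GRCm38).

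Per kilobase of exon the members spanned a wide range. The highest median level over the 35 libraries was that of Canx, the membrane lectin that holds glycoproteins, at 668 CPM per kb (CPM being counts scaled to a common library size). Hspa5, the main ER chaperone, followed at 470.0 CPM per kb and Hsp90b1, its partner of the HSP90 family, was the fourth at 253 CPM per kb. The sensors were far lower, at 5.90 CPM per kb for Atf6, 4.24 for Eif2ak3 and 0.639 for Ern1. Edem1, which accelerates the removal of misfolded glycoproteins, ranked 28 of 36 at 7.17 CPM per kb. Hyou1 (ORP150, GRP170), a large HSP70 relative that exchanges the nucleotide of Hspa5, ranked 32 at 2.98 CPM per kb.

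Edem1 was higher in B6D2F1N mice in every housing and portion. In standard housing the anterior levels were 17.9, 45.0, 24.3 and 29.3 CPM in C57BL/6J and 112, 61.8, 60.1, 66.6 and 67.1 CPM in B6D2F1N mice. In enriched housing they were 25.3 and 17.0 CPM against 70.7, 93.3, 83.3, 87.1 and 70.4 CPM. No B6D2F1N library of the anterior portion lay as low as any C57BL/6J library of the same housing. In the posterior portion the standard-housed levels were 16.5, 19.7, 5.22 and 25.9 CPM against 75.0, 58.6, 43.5, 49.3 and 46.2 CPM. In enriched housing the posterior levels were 18.2, 16.3, 35.7 and 28.5 CPM in C57BL/6J, and in the 6 B6D2F1N libraries the lowest was 36.0, the median 52.8 and the highest 91.6 CPM. The groups were again apart, by a wide margin in standard housing and by a narrow one in enriched housing. With both housings in 1 fit, Edem1 was 2.97-fold higher in B6D2F1N in the anterior portion (log2 difference 1.57, SE 0.21, adjusted p = 0.000156 by edgeR's quasi-likelihood test) and 2.73-fold higher in the posterior portion (1.45, SE 0.25, adjusted p = 0.00115).

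Hyou1 was also higher in B6D2F1N mice in the posterior portion, while in the anterior portion the same direction did not pass by edgeR. In standard housing its posterior levels were 12.0, 8.67, 6.90 and 11.5 CPM in C57BL/6J and 34.0, 24.4, 22.5, 38.6 and 33.3 CPM in B6D2F1N mice. In enriched housing the C57BL/6J levels were 20.4, 10.2, 21.5 and 11.5 CPM, and the B6D2F1N levels had a lowest value of 25.3, a median of 34.0 and a highest value of 41.5 CPM. The strains did not overlap in either housing. In the anterior portion the standard-housed levels were 15.2, 12.0, 7.86 and 12.1 CPM against 37.9, 32.0, 30.2, 25.0 and 14.7 CPM. In enriched housing they were 17.5 and 14.3 CPM against 21.1, 24.8, 20.4, 59.4 and 18.6 CPM. Here 1 standard-housed B6D2F1N library lay among the C57BL/6J values, and the enriched groups were close to each other. With both housings in 1 fit, the log2 difference was 1.38 in the posterior portion (SE 0.19, 2.60-fold, adjusted p = 4.72e-05 by edgeR) and 1.10 in the anterior portion (SE 0.27, 2.15-fold), where the adjusted p of 0.0691 missed the threshold of 0.05. DESeq2 gave an adjusted p of 0.00625 for it there, and leaving out 1 mouse at a time moved the edgeR value from 0.0339 to 0.205. Edem1 stayed past the threshold in both portions whichever mouse was left out, and so did Hyou1 in the posterior portion.

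**Figure D1:**
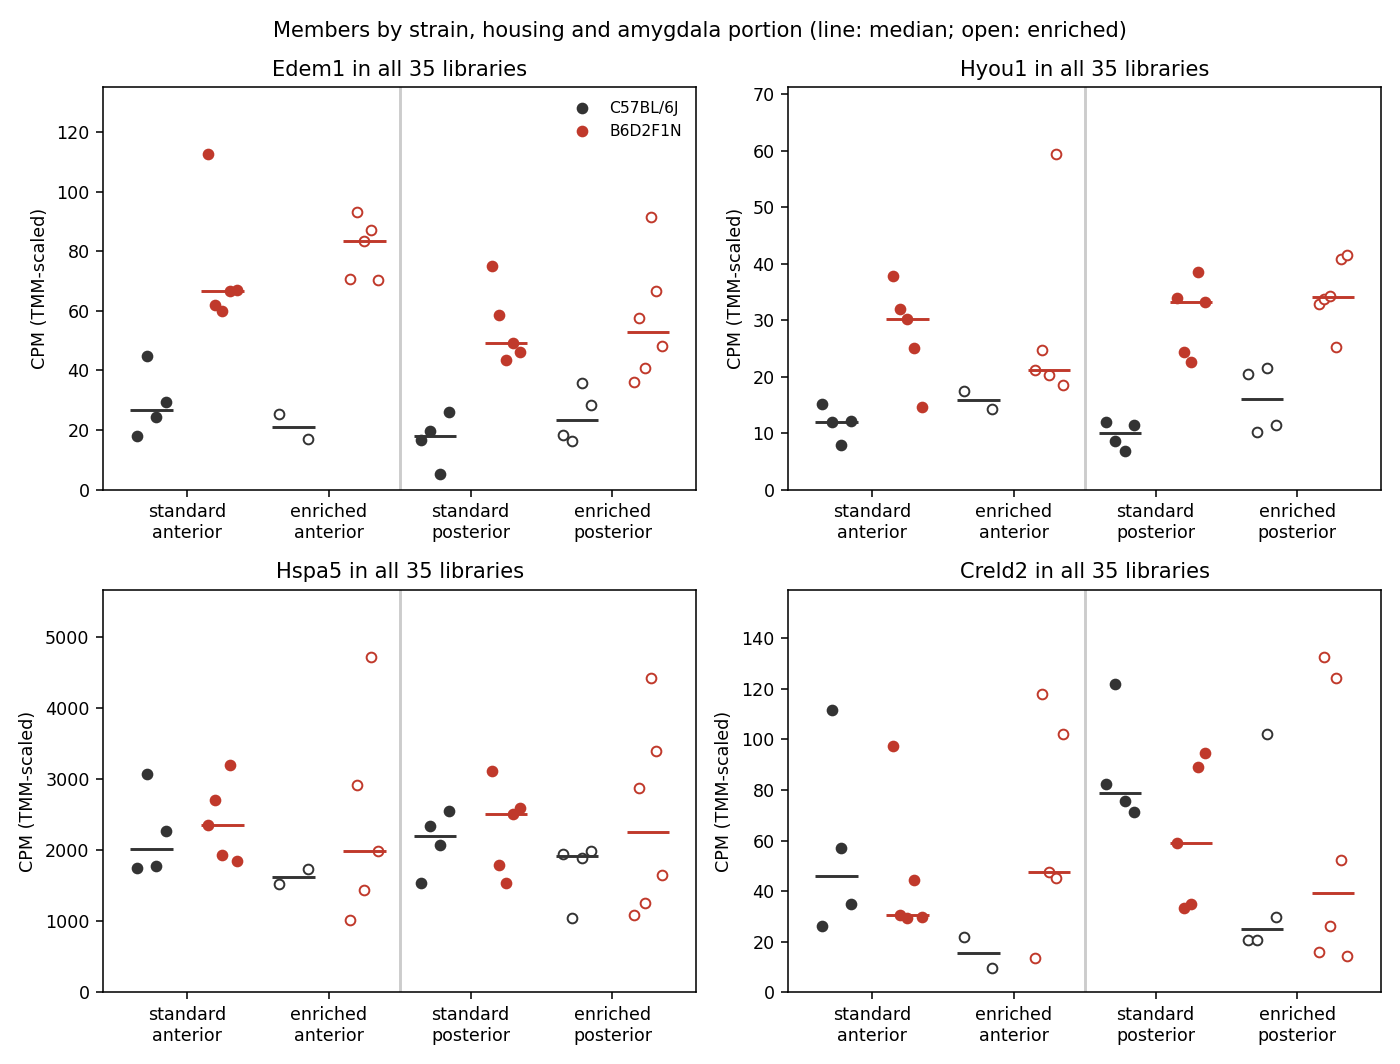
TMM-scaled CPM (y axis) of Edem1, Hyou1, Hspa5 and Creld2 in each of the 35 libraries by housing and portion (x axis), C57BL/6J in black and B6D2F1N in red, filled for standard and open for enriched housing, with a line at each group's median. Within each housing and portion every B6D2F1N point of Edem1 lies above every C57BL/6J point, and so it is for Hyou1 outside the standard anterior groups, whereas the points of Hspa5 overlap between strains.

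Calls were fewer within 1 housing. In standard housing and the anterior portion 1 of the 36 members passed the threshold, Edem1 (log2 difference 1.34, SE 0.26, adjusted p = 0.0341 by edgeR), where 0.37% of all 24305 genes tested passed. In standard housing and the posterior portion 1 member passed, Hyou1 (1.66, SE 0.26, adjusted p = 0.0073), against 0.373% of all genes, and Edem1 stood at 1.71 (SE 0.36, adjusted p = 0.0692). In enriched housing and the anterior portion, with 2 C57BL/6J libraries, Edem1 was the 1 member that passed (1.96, SE 0.30, adjusted p = 0.0423), against 0.0639% of all genes. There 7 members had an unadjusted p under 0.05, all higher in B6D2F1N, where 4.33% of all genes had such a p, and 28 of 36 members were above 0. In enriched housing and the posterior portion no member passed by edgeR, against 0.394% of all genes. There 2 members had an unadjusted p under 0.05, where 9.11% of all genes had such a p. They were Hyou1 (1.14, SE 0.26, adjusted p = 0.0806 by edgeR) and Edem1 (1.23, SE 0.29, adjusted p = 0.117), and DESeq2 called both. With both housings in 1 fit, 1 of 36 members passed in the anterior portion against 0.615% of all genes, and 2 of 36 in the posterior portion against 0.858%. All of these calls were Edem1 or Hyou1, higher in B6D2F1N. The anterior calls within 1 housing were fragile: that of standard housing was lost in 7 of 9 fits without 1 mouse (adjusted p up to 0.166), the mouse with no Xist count among them (0.0698), and that of enriched housing in 7 of 7 (up to 0.9999).

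Edem1 did not overlap between the strains in any of the 4 housings and portions, and Hyou1 in 3 of them. In standard housing 2 members were wholly higher in B6D2F1N in the anterior portion, Edem1 and Manf, where 2.04% of all genes were, and 2 in the posterior portion, Edem1 and Hyou1, against 2.1% of all genes. In enriched housing these were Edem1, Hyou1 and Sdf2l1 in the anterior portion (3.16% of all genes) and Edem1 and Hyou1 in the posterior portion (1.45%). No member was wholly lower in B6D2F1N in any of the 4, where between 0.753% and 4.9% of all genes were.

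With both housings in 1 fit none of the other 34 members passed. Their median log2 difference between strains was 0.00 in the anterior and 0.05 in the posterior portion, with 18 and 19 of 34 above 0. The median over all 36 members was 0.01 and 0.05, and over all genes tested it was 0.00 and 0.02. In both portions Edem1 ranked first and Hyou1 second of the 36 by the size of the rise. The question named these 2 genes with earlier results of these data known, so their ranks are no separate support. Within each housing the anterior median of the 34 lay away from 0. In standard housing the median of the 34 was −0.19 with 7 above 0, and in enriched housing, against 2 C57BL/6J libraries, it was 0.33 with 26 above 0. In the latter comparison Edem1 ranked 4 of 36 by log2 difference, behind Sdf2l1, Xbp1 and Creld2, and Hyou1 ranked 9. There 6 of the 34 had an unadjusted p under 0.05, all higher in B6D2F1N. With both housings in 1 fit the next highest of the 34 reached 0.66 (Sdf2l1) in the anterior and 0.48 (Pdia4) in the posterior portion.

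Among the 8 sensors and transducers no member passed in either portion. Xbp1, the factor made from IRE1-spliced RNA, stood at 0.23 (SE 0.64) in the anterior and −0.04 (SE 0.52) in the posterior portion. Mbtps1, the protease that releases Atf6, had the smallest p of the group in the anterior portion (−0.22, SE 0.17, adjusted p = 0.919 by edgeR). Ddit3 (CHOP), the stress factor tied to cell death, had it in the posterior portion (0.35, SE 0.20, adjusted p = 0.56). The Xbp1 standard errors were wider than those of Mbtps1 and Ddit3, so a sizeable difference could have been missed.

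Of the 7 members of the HSP70 and HSP90 system only Hyou1 passed, in the posterior portion. Hspa5, its partner, stood at 0.30 (SE 0.26) in the anterior and 0.33 (SE 0.24) in the posterior portion. Its C57BL/6J levels ran from 1051 to 3080 CPM and its B6D2F1N levels from 1018 to 4726 CPM, a full overlap. Hsp90b1 stood at −0.01 (SE 0.21) and 0.06 (SE 0.21). Of the 7 disulfide factors none passed, and Pdia4, a multi-domain disulfide isomerase, came nearest at 0.53 (SE 0.25, adjusted p = 0.634 by edgeR) and 0.48 (SE 0.19, adjusted p = 0.314). Neither lectin chaperone passed: Canx stood at 0.11 (SE 0.21) and 0.05 (SE 0.23), Calr at −0.02 (SE 0.21) and 0.11 (SE 0.16). Manf, a secreted protein of stressed cells, stood at 0.41 (SE 0.16, adjusted p = 0.54) and 0.27 (SE 0.16, adjusted p = 0.614).

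Among the 10 degradation factors Edem1 was higher in B6D2F1N, while its relatives Edem2 and Edem3 were not shown to differ. Edem2, a mannose-trimming relative, was at −0.08 (SE 0.16) in the anterior and −0.28 (SE 0.13, adjusted p = 0.403 by edgeR) in the posterior portion. Edem3, another, was at 0.01 (SE 0.22) and 0.26 (SE 0.15). The ratio of Edem1 to Edem2 within a library was 1.71 higher on the log2 scale in B6D2F1N in the anterior portion and 1.81 higher in the posterior portion. By an exact two-sided permutation of strain within housing p was 0.000378 and 3.78e-05, the smallest that 2646 and 26460 arrangements can give (adjusted over 10 ratios 0.00063 and 0.000126). The ratio of Edem1 to Edem3 differed by 1.56 and 1.27 with the same p-values.

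Against the main chaperone both genes also differed. The ratio of Edem1 to Hspa5 was 1.38 higher on the log2 scale in B6D2F1N in the anterior portion (exact permutation p = 0.000756, adjusted 0.00108) and 1.29 in the posterior portion (p = 3.78e-05, adjusted 0.000126). The ratio of Hyou1 to Hspa5 was 0.80 higher in the anterior portion (exact permutation p = 0.0140, adjusted 0.0140) and 1.17 in the posterior portion (p = 0.00246, adjusted 0.00294). The ratio of Hyou1 to Hsp90b1 was 1.08 and 1.39 higher (exact permutation p = 0.00265 and 0.000265, adjusted 0.00294 and 0.00063). All 10 differences passed. These ratios were chosen after the values had been seen. They rest on the same libraries and the same differences of Edem1 and Hyou1, so their p-values add no separate support.

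**Figure D2:**
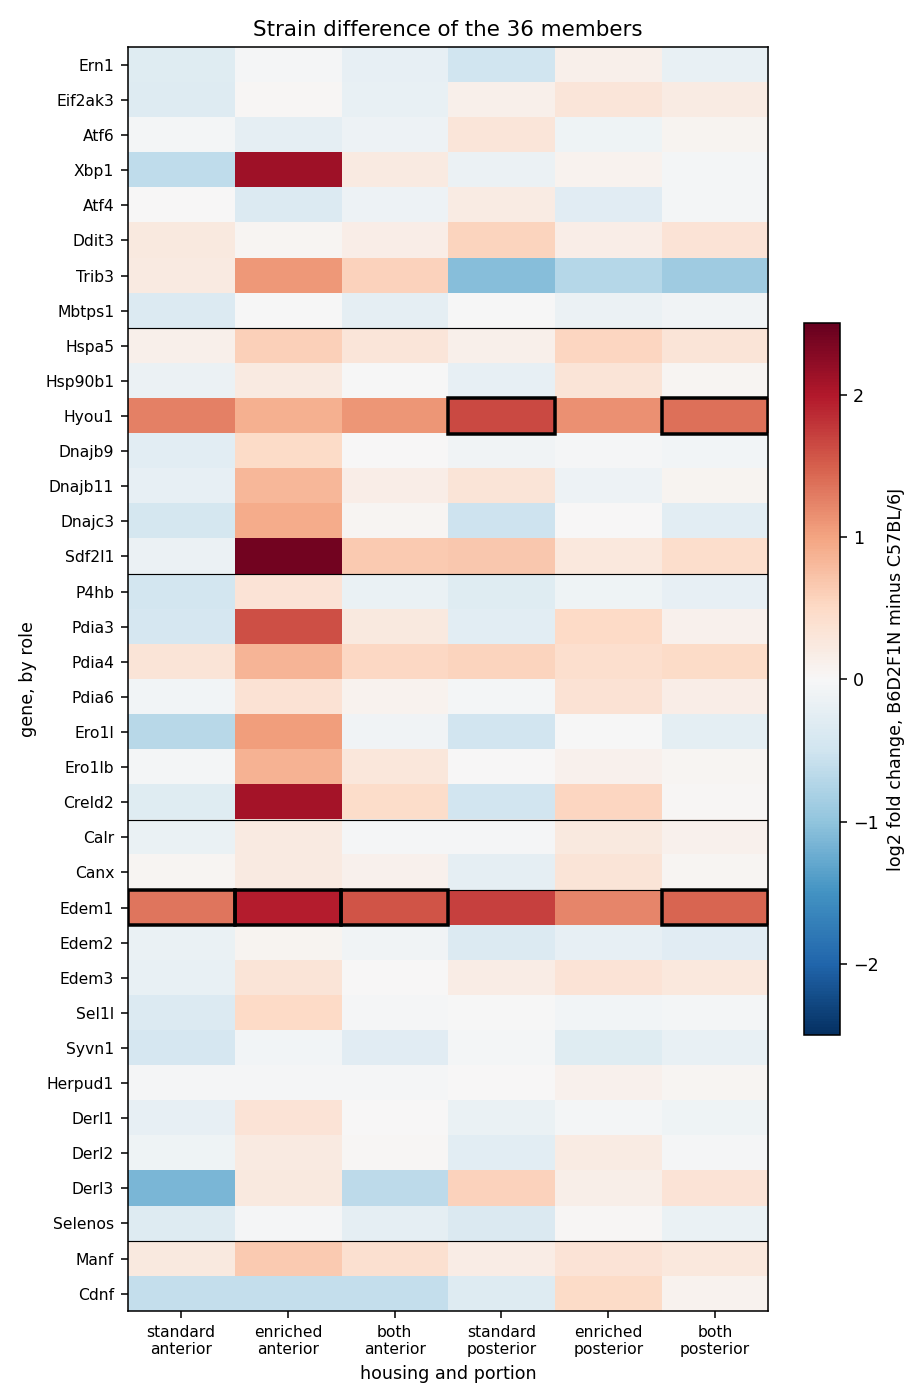
Log2 fold change between strains (B6D2F1N minus C57BL/6J, colour) of the 36 members (rows, grouped by role between lines) in each housing and portion and with both housings in 1 fit (columns), with a black frame where the adjusted p was at most 0.05. The frames fall on Edem1 and Hyou1, and the enriched anterior column, with 2 C57BL/6J libraries, is the only one in which members other than these 2, such as Sdf2l1 (2.40) and Xbp1 (2.12), rise above a log2 difference of 1, none of them past the threshold.

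The strain difference of neither gene was shown to depend on housing or portion. The interaction of strain with housing was 0.59 (SE 0.40) for Edem1 and −0.40 (SE 0.53) for Hyou1 in the anterior portion, and −0.48 (SE 0.47) and −0.52 (SE 0.35) in the posterior portion. The interaction of strain with portion was −0.02 (SE 0.32) for Edem1 and 0.30 (SE 0.33) for Hyou1. No member passed in any of these 3 interaction fits by edgeR or by DESeq2, and 6 members had an unadjusted p under 0.05, all in the anterior fit of strain by housing and all positive, where 5.98% of all genes had such a p. In that fit 30 of 36 members were above 0 (median 0.43, against −0.02 over all genes). With standard errors of this size a change in the strain difference by a log2 unit could have been missed.

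The neighbours of both genes were looked at within 500 kb of their starts. Around Edem1 8 genes could be tested in the fit of both housings in each portion, of which 2 coded for protein, and around Hyou1 51 in the anterior and 55 in the posterior portion. None of them passed the threshold by edgeR in any of the 6 strain comparisons. At an unadjusted p under 0.05 there was 1 of 8 around Edem1 in each portion, and 3 of 51 and 7 of 55 around Hyou1, where 7.67% and 11% of all genes had such a p. The lowest adjusted p was 0.0664, for Gm47345, a transcript 381 kb before the start of Hyou1 (log2 difference −4.20, SE 1.07, posterior portion, both housings), named after its values were seen.

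A further 142 genes of the same pathways were tested between strains. They came from lists of degradation factors, folding enzymes, the translocation channel, stress regulators, targets of ATF4 and heat shock proteins outside the ER. With both housings in 1 fit 1 of 142 passed in the anterior portion, where 0.615% of all genes passed. In the posterior portion 3 of 142 passed, against 0.858% of all genes. Man1b1, an ER mannosidase that trims misfolded glycoproteins, was lower in B6D2F1N in both (−0.94, SE 0.17, adjusted p = 0.00488 by edgeR, and −0.71, SE 0.16, adjusted p = 0.0184). In the anterior portion its C57BL/6J level was 123 ± 28.0 CPM (SD, n = 4) in standard housing, and 112 and 115 CPM in the 2 enriched libraries. The B6D2F1N levels ran from 43.8 to 86.3 and from 37.0 to 79.6 CPM, below every C57BL/6J library. Erlec1, a lectin that reads trimmed mannose chains, was higher in the posterior portion (0.70, SE 0.15, adjusted p = 0.0177). Srp9, a part of the particle that brings nascent chains to the ER, was lower there (−0.71, SE 0.14, adjusted p = 0.00574). The medians of the 142 genes were −0.04 and −0.05. In the 4 comparisons within 1 housing none of the 142 passed by edgeR, where between 0.0639% and 0.394% of all genes passed. DESeq2 called between 1 and 3 of the 142, and its share over all genes is not given here.

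Few markers of other cell types passed between strains, though some lists lay on 1 side. Of 100 marker genes of 10 cell types none passed in the anterior portion, where 0.615% of all genes passed. In the posterior portion 1 passed, the choroid plexus gene Kl (2.30, SE 0.51, adjusted p = 0.0219 by edgeR), against 0.858% of all genes. In the posterior portion all 10 choroid plexus markers were above 0 (median 1.85), and all 10 of the endothelial (−0.42), microglia (−0.29) and oligodendrocyte markers (−0.42) were below 0. In the anterior portion all 10 oligodendrocyte markers were below 0 as well (−0.33). Summed endothelial markers ran from 361 to 774 CPM in B6D2F1N and from 502 to 826 CPM in C57BL/6J in the anterior portion, with medians of 346 against 520.0 CPM in the posterior portion. Summed choroid plexus markers in the posterior portion ran from 413 to 14710 against 140 to 1496 CPM. Their part in the strain difference of Edem1 and Hyou1 was not tested. In bulk samples such as these fewer cells of a type and less RNA per cell cannot be told apart.

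Between the portions few members passed, 2 sensors of ER stress in C57BL/6J and Edem1 in B6D2F1N mice, in numbers near the share over all genes. No member passed in the interaction of strain with portion, so these calls are not shown to belong to 1 strain. In the 6 C57BL/6J mice with both portions, Eif2ak3 (PERK), the kinase that slows translation in ER stress, was lower in the posterior portion in all 6, at 18.5 ± 7.40 CPM against 36.8 ± 6.69 CPM (SD, n = 6). The paired log2 difference was −1.07 (SE 0.20, adjusted p = 0.00378 by edgeR). Atf6, the sensor that is itself a transcription factor, was lower in all 6 as well, at 43.7 ± 6.56 against 79.2 ± 21.1 CPM (−0.83, SE 0.17, adjusted p = 0.00867). The Atf6 call was lost in 1 of the 6 fits that left out 1 mouse (replicate 1 of standard housing, adjusted p = 0.0557). These 2 of 36 members passed, both lower, where 3.64% of all genes passed in either direction. In the 10 B6D2F1N mice the same genes stood at −0.62 (SE 0.19, lower in 10 of 10 mice, adjusted p = 0.0788) and −0.49 (SE 0.16, lower in 8 of 10, adjusted p = 0.108). There 1 of 36 members passed, Edem1 (−0.52, SE 0.13, adjusted p = 0.0265), against 4% of all genes.

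Edem1 was lower in the posterior portion in 9 of the 10 B6D2F1N mice, at 54.7 ± 17.0 against 77.3 ± 16.6 CPM (SD, n = 10), and in 5 of the 6 C57BL/6J mice, where it did not pass (−0.51, SE 0.32, adjusted p = 0.567 by edgeR). Hyou1 differed by −0.04 (SE 0.25) in C57BL/6J and 0.27 (SE 0.22) in B6D2F1N. The call of Edem1 in B6D2F1N was lost in 7 of the 10 fits that left out 1 mouse (adjusted p up to 0.106), and with library totals as the only scaling (0.169). Without the mouse term it was lost as well (−0.49, adjusted p = 0.0777), and no member was then called in B6D2F1N. The median over the members was −0.05 in C57BL/6J and −0.16 in B6D2F1N, against 0.01 and 0.15 over all genes.

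Markers of other cell types moved with the portions. Of 100 marker genes 15 were higher and 9 lower in the posterior portion in C57BL/6J, against 1.54% and 2.1% of all genes. In B6D2F1N 25 were higher and 8 lower, against 1.62% and 2.37%. The summed choroid plexus markers ran from 11.7 to 38.1 CPM in the anterior and from 140 to 1496 CPM in the posterior C57BL/6J libraries. Summed excitatory neuron markers had an anterior median of 3668 and a posterior one of 2338 CPM in C57BL/6J, and the B6D2F1N medians were 3722 and 2493 CPM. Their part in the values of Eif2ak3, Atf6 and Edem1 was not tested. The study's methods give section positions for the 2 portions in the reverse of the usual order along the brain, so the labels were used as given, and every sign here would turn if they were exchanged.

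**Figure D3:**
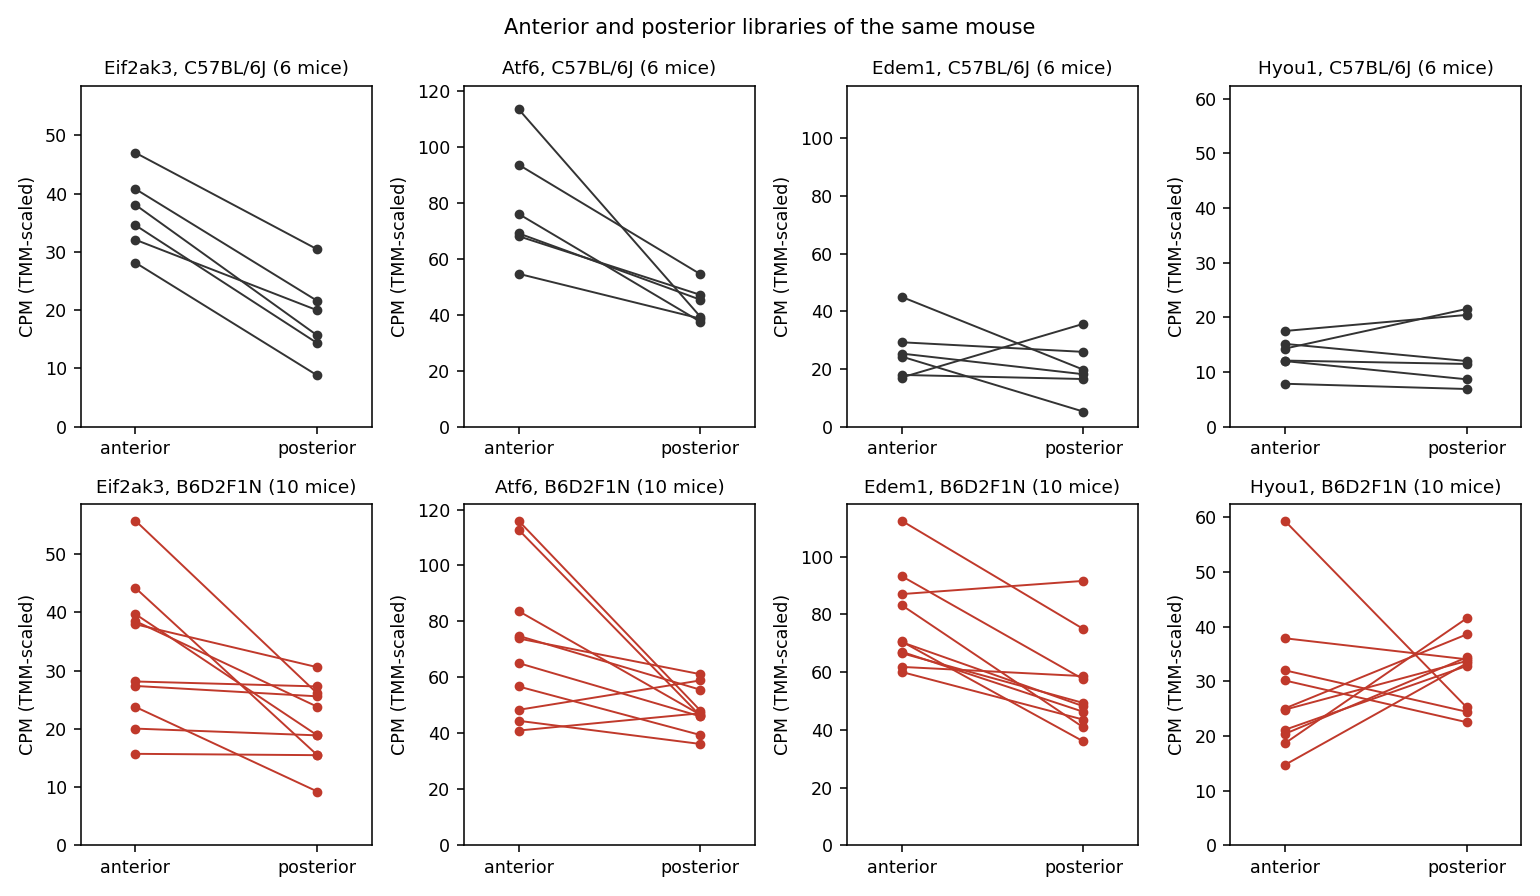
TMM-scaled CPM (y axis) of Eif2ak3, Atf6, Edem1 and Hyou1 in the anterior and posterior portion (x axis), with a line for each mouse that had both, 6 C57BL/6J mice above and 10 B6D2F1N mice below. The lines of Eif2ak3 fall in all 16 mice and those of Edem1 in 14 of 16, while those of Hyou1 run both ways.

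Of the other pathway lists, 1 of 142 genes passed between the portions in C57BL/6J, Fkbp2, an ER prolyl isomerase, lower in the posterior portion (−0.75, SE 0.16, adjusted p = 0.00888 by edgeR). In B6D2F1N 3 passed, all lower: Tmx2, a membrane relative of the disulfide isomerases (−0.58, SE 0.13, adjusted p = 0.0148), and the ATF4 targets Slc7a1, an amino acid carrier (−0.64, SE 0.16, adjusted p = 0.0263), and Asns, asparagine synthetase (−0.49, SE 0.13, adjusted p = 0.0306). Over all genes 3.64% passed by edgeR in C57BL/6J and 4% in B6D2F1N. DESeq2 called 9 and 12 of the 142. Its share over all genes is not given here, so these counts cannot be set against the edgeR shares.

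Housing moved no member past the threshold by edgeR in either strain or portion. Passing genes made up 0% of those tested in the anterior portion of C57BL/6J, 0.0163% in its posterior portion, and 0% in each portion of B6D2F1N. In the anterior portion of C57BL/6J, with 2 enriched libraries, 8 members had an unadjusted p under 0.05, all lower in enriched housing, where 6.2% of all genes had such a p, and DESeq2 called 2 of them. These were Sdf2l1, a partner of the ER J-proteins (−1.99, SE 0.52, adjusted p = 0.555 by edgeR), and Creld2, a secreted disulfide isomerase induced by ER stress (−1.87, SE 0.54, adjusted p = 0.598). The Creld2 levels were 26.3, 112, 56.9 and 34.9 CPM in standard and 22.0 and 9.42 CPM in enriched housing. Both enriched values lay below all 4 standard ones. In the posterior portion 4 of 36 members had such a p, also all lower, a share near the 10.3% of all genes, and DESeq2 called none. There Creld2 was at 82.3, 122, 75.5 and 71.1 CPM in standard and at 20.5, 20.5, 102 and 29.9 CPM in enriched housing, so that 1 enriched library (replicate 3) lay among the standard ones. Without that mouse 4 of 36 members passed by edgeR, all lower in enriched housing, where 0.717% of all genes passed. They were Creld2, Pdia3, Ero1l, the oxidase that recharges the disulfide isomerases, and Dnajc3, a J-protein partner of Hspa5. That mouse was singled out by its Creld2 level, so this fit is no separate test of Creld2. Nor is it one of Pdia3, which varied closely with Creld2 between mice. Since many members varied together, the calls of Ero1l and Dnajc3 are not taken as separate support either. The fits that left out each of the other mice called no gene. The library left out also had the fewest genes detected of its group (21415). In B6D2F1N no member had an unadjusted p under 0.05 in either portion, and DESeq2 called none. The median of the members was −0.40 and −0.24 in C57BL/6J and 0.07 and −0.05 in B6D2F1N, anterior and posterior. Over all genes tested these medians were −0.01, 0.02, 0.00 and 0.03. Some marker lists of other cell types lay on 1 side between housings in both strains. In C57BL/6J all 10 oligodendrocyte markers were above 0 in both portions (median 0.84 and 0.96, 1 called in the posterior portion). So were all 10 striatal projection neuron markers in its anterior portion (median 0.75) and all 10 ependymal markers in its posterior portion (median 1.02). In B6D2F1N, where no marker was called, all 10 oligodendrocyte markers were above 0 in the anterior portion (median 0.5625). In its posterior portion all 10 of the ependymal (median 0.4945), choroid plexus (1.299) and meningeal fibroblast markers (0.7995) were above 0. Their part in the members' values was not tested.

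Neither Edem1 nor Hyou1 passed with housing. In C57BL/6J Hyou1 stood at 0.42 (SE 0.35) in the anterior and 0.70 (SE 0.33, adjusted p = 0.486 by edgeR) in the posterior portion, and Edem1 at −0.47 (SE 0.36) and 0.54 (SE 0.40). In B6D2F1N the 4 values lay between 0.03 and 0.18, with standard errors of 0.19 to 0.34.

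Between mice of the same group many members varied together. Within strain and housing groups the log2 CPM of Hspa5 and Hsp90b1 rose and fell together (r = 0.97 over 16 anterior libraries, rho = 0.95, permutation p = 3e-05, adjusted over 10 relations 0.00015). Posterior libraries did so as well (r = 0.94 over 19 libraries, rho = 0.89, p = 2e-05, adjusted 0.00015). Without the 2 libraries farthest from the median r was 0.93 and 0.95. Creld2 and Pdia3, a disulfide isomerase that works with the lectins, were as close (r = 0.96 and 0.98, rho = 0.94 and 0.94, permutation p = 3e-05 and 1e-05, adjusted over 1260 relations 0.00105 and 0.00063), and r was 0.93 and 0.97 without 2 libraries. Of the 630 pairs of members 120 in the anterior and 150 in the posterior portion had a positive r past the threshold, and 3 and 7 a negative one. All pairs were added after the values had been seen. The negative ones all held Atf4 or Ddit3, the transcription factors of the PERK branch. The median r over all pairs was 0.45 and 0.31. Over all pairs of the 13759 genes with a count in every library it was 0.00 in both portions, against 0.48 and 0.36 for the pairs of the 34 members among them.

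Hyou1 passed with none of the 35 other members in the anterior portion and with 1, Syvn1, the ubiquitin ligase of ER-associated degradation, in the posterior portion (r = 0.73, rho = 0.69, permutation p = 0.00957, adjusted 0.0455, and r = 0.71 without 2 libraries). Edem1 passed with 8 and 9 members. By the median r with the other 35, Hyou1 ranked 29 and 25 of 36 and Edem1 26 and 19. Low numbers were not particular to them, since Eif2ak3 passed with 2 and 0, Atf6 with 1 and 0 and Mbtps1 with 1 and 1, while Hspa5 passed with 13 and 15. Edem1 and Hyou1 were not shown to move together (r = 0.23, rho = 0.15, permutation p = 0.377, adjusted over 10 relations 0.419 in the anterior portion, and r = 0.31, rho = 0.28, p = 0.253, adjusted 0.356 in the posterior portion), and r was 0.08 and 0.07 without 2 libraries. Hyou1 with Hspa5 gave r = 0.60 (rho = 0.41, permutation p = 0.0575, adjusted 0.136) in the anterior portion, which fell to 0.28 without 2 libraries and so rested on them. Posterior libraries gave r = 0.16 (rho = 0.18, permutation p = 0.492, adjusted 0.492, and 0.02 without 2 libraries). Hyou1 with Hsp90b1 gave r = 0.53 (rho = 0.39, permutation p = 0.119, adjusted 0.198, and 0.25 without 2 libraries) and 0.26 (rho = 0.19, p = 0.285, adjusted 0.356, and 0.13). Edem1 with Hspa5 gave r = 0.38 (rho = 0.38, permutation p = 0.0680, adjusted 0.136, and 0.36 without 2 libraries) in the anterior portion. In the posterior portion it passed (r = 0.56, rho = 0.68, permutation p = 0.00549, adjusted 0.0183, and 0.75 without 2 libraries), but not on the scale of library totals (r = 0.49, adjusted p = 0.056).

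**Figure D4:**
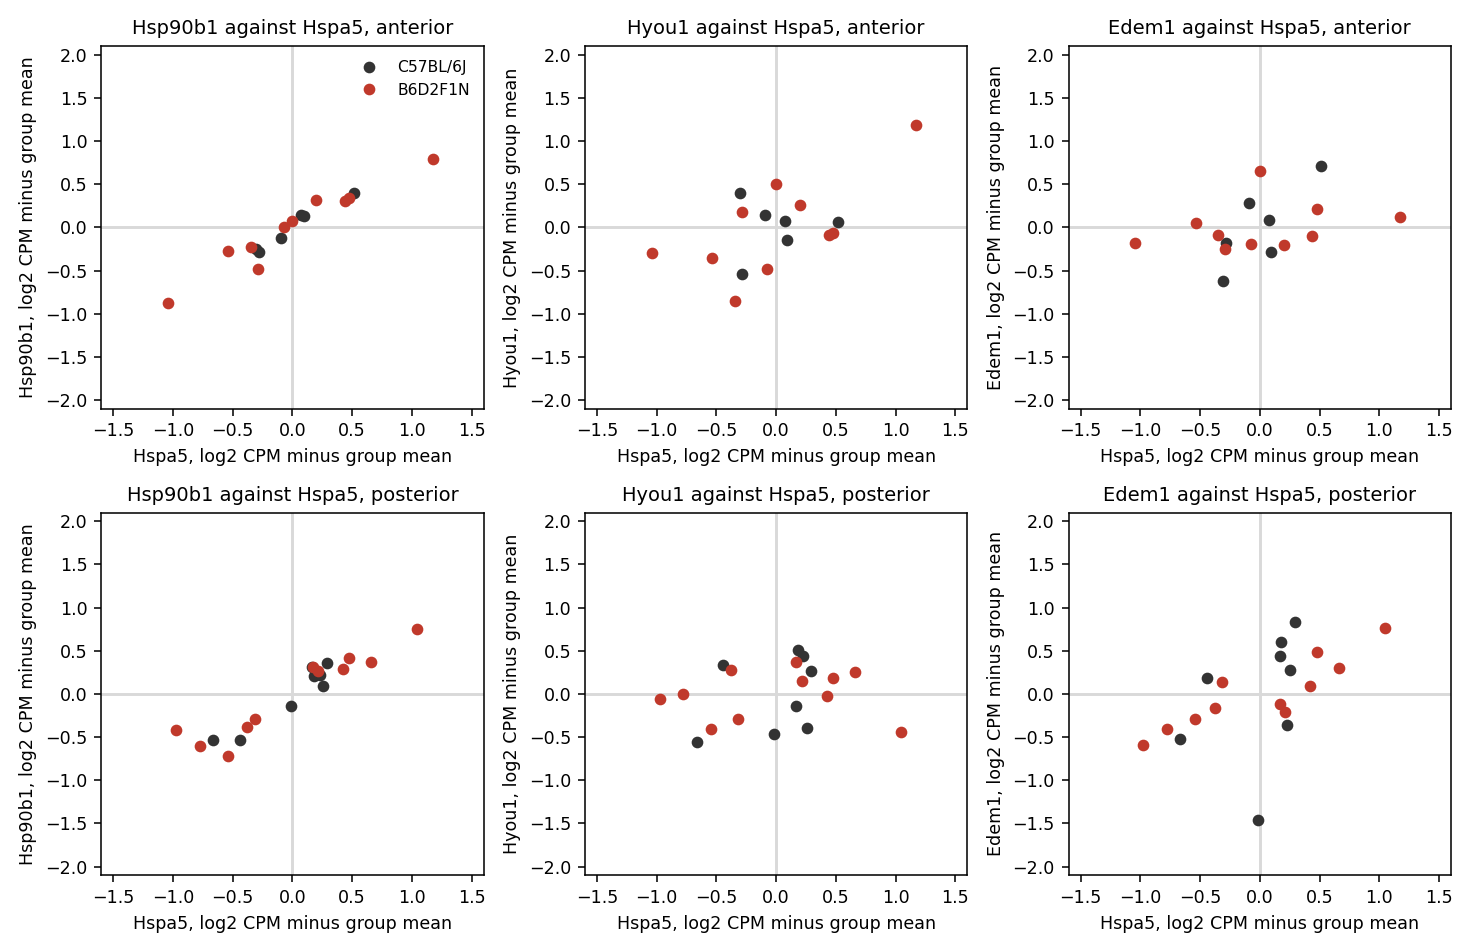
Log2 CPM minus the mean of the strain and housing group for Hsp90b1, Hyou1 and Edem1 (y axes) against Hspa5 (x axis), 16 anterior libraries above and 19 posterior libraries below, C57BL/6J in black and B6D2F1N in red. The points of Hsp90b1 follow a line (r = 0.97 and 0.94), those of Hyou1 and Edem1 spread around it (r = 0.60 and 0.16, and 0.38 and 0.56).

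Many members were related to the number of genes detected in a library. Creld2 was lower in libraries with more genes detected (r = −0.84 in the anterior portion, rho = −0.68, permutation p = 0.00165, adjusted over 144 relations 0.0158, and −0.69 without 2 libraries). In the posterior portion the relation was as strong (r = −0.86, rho = −0.90, p = 3e-05, adjusted 0.00216, and −0.86 without 2 libraries). Of the 36 members 6 in the anterior and 18 in the posterior portion passed by r with the number of genes detected, all negative. By rho only Dnajc3, Ero1l and Xbp1 passed in the anterior portion, and Creld2 did not (adjusted permutation p = 0.064). In the posterior portion Hspa5, Hsp90b1, Ero1lb, Sdf2l1 and Selenos passed by r but not by rho, and Edem3 by rho only. These relations were added after the values had been seen. For comparison, over the 13759 genes with a count in every library, 34 members among them, 7.91% in the anterior and 12.7% in the posterior portion had a negative r at an unadjusted p of at most 0.05, as had 10 and 23 of these 34 members. The median r of these genes was 0.03 and 0.05, and that of the 34 members −0.40 and −0.64. The same family of relations held the library total, with which 4 members passed by r in the anterior portion, all positive, Creld2 (r = 0.78, rho = 0.78, permutation p = 0.00354, adjusted 0.0255, and 0.80 without 2 libraries), Ero1l, Pdia3 and Xbp1. Of these Creld2 and Ero1l also passed by rho, and no member passed by r in the posterior portion. Edem1 (r = −0.41 and −0.37, rho = −0.27 and −0.45, permutation p = 0.0791 and 0.0878, adjusted 0.242 and 0.263) and Hyou1 (r = 0.13 and −0.23, rho = 0.25 and −0.12, permutation p = 0.738 and 0.328, adjusted 0.873 and 0.602) were not among them. Without 2 libraries r was −0.39 and −0.37 for Edem1 and 0.32 and −0.15 for Hyou1. The part of library quality in the swings was not tested. The 2 strains had like numbers of genes detected, with medians of 22116 in C57BL/6J and 21518.5 in B6D2F1N for the anterior portion, and of 22695 and 22530 for the posterior one. With a term for genes detected in the fit, Edem1 and Hyou1 were both called in each portion with both housings in 1 fit (log2 difference of Hyou1 in the anterior portion 1.17, adjusted p = 0.0495 by edgeR), and Pdia4 was called as well in the posterior portion.

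Xbp1 fell into 2 ranges. In 22 libraries it lay between 25.5 and 56.6 CPM and in 13 between 114 and 324 CPM, with none between. High libraries were found in both strains, both housings and both portions. In the standard anterior group its levels were 25.5, 279, 115 and 45.3 CPM in C57BL/6J and 180, 49.1, 48.1, 46.8 and 50.8 CPM in B6D2F1N, and Creld2 in the same libraries was 26.3, 112, 56.9 and 34.9 CPM, and 97.6, 30.4, 29.2, 44.4 and 29.7 CPM. In both of these groups the library with the highest Xbp1 was also the one with the highest Creld2 and the highest Edem1. Edem1 reached 112 CPM in that B6D2F1N library. In the C57BL/6J library at 279 CPM of Xbp1 it was 45.0 CPM, still under every B6D2F1N library of that portion.

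**Figure D5:**
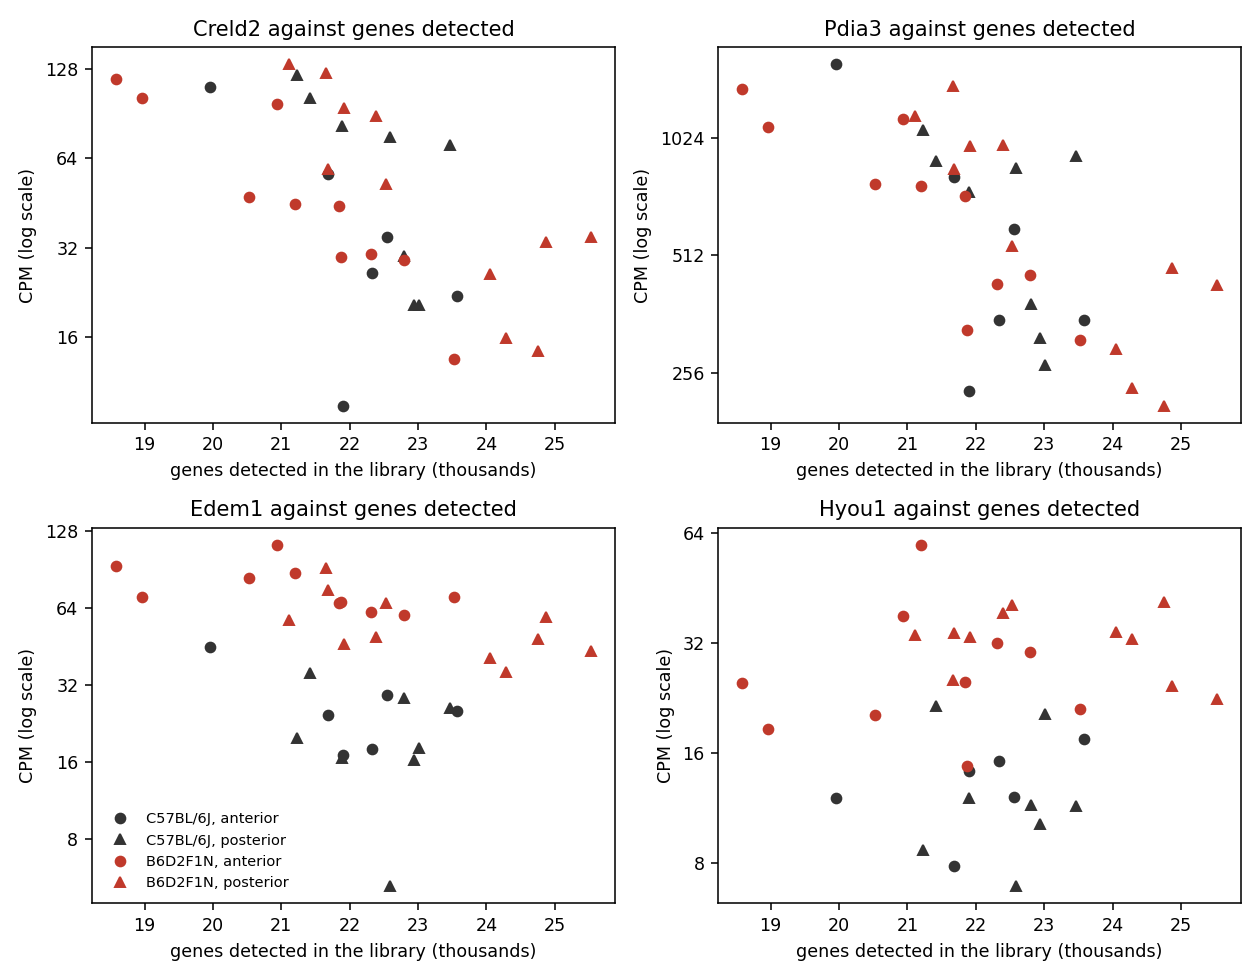
CPM (y axis, log scale) of Creld2, Pdia3, Edem1 and Hyou1 against the number of genes with at least 1 count in the library (x axis), C57BL/6J in black and B6D2F1N in red, circles for anterior and triangles for posterior libraries. Creld2 and Pdia3 fall from left to right in both strains, whereas for Edem1 and Hyou1 most B6D2F1N points lie above the C57BL/6J points.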

How the data were processed

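RNA was measured by RNA-seq in 35 libraries of laser-captured amygdala cells, 1 library per mouse and portion. The authors deposited raw counts per Ensembl gene and library. Per the labels and the study's methods, polyA RNA was sequenced as single reads, trimmed with Trimmomatic 0.38, aligned to GRCm38 with HISAT2 2.1.0 and counted with HTSeq 0.11.2. The annotation release and the strand setting are not given in the sources used here, so reads of antisense partners may not be told apart.

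Rows that name no gene, left out here, held 13.7 to 26.4% (no feature), 3.06 to 3.74% (ambiguous) and 6.23 to 10.9% (not unique) of a library. From these counts, differences were fitted with edgeR 4.0.16 (quasi-likelihood F test, TMM scaling, genes with at least 10 counts in all, Benjamini-Hochberg adjustment over all genes tested, threshold 0.05) in R 4.3.3. SE is the log2 fold change divided by the square root of F. CPM used 1 TMM scaling over the 35 libraries. Strain was fitted in each housing and portion and, with a term for housing, over both housings, and portion within strain with mouse as a block, since the labels tie both portions to 1 animal. Over 16022 genes the residuals of the same mouse had a median r of 0.0481 (−0.105 to 0.222), those of other mice −0.0168. Correlations used log2 CPM (prior count 2) minus group means and 100000 permutations within groups. The smallest p these can give is 1e-05. Alternatives were DESeq2 1.42.0, other scalings and filters, 1 fit for 4 groups, a term for genes detected (added after seeing the data) and leaving out each mouse. The fits were tested on simulated data: in the posterior strain comparison over both housings 52 of 100 genes changed 2-fold and 97 of 100 changed 4-fold were recovered. The members and gene lists were chosen with earlier results of these data known. Genes named were those called, Edem1, Hyou1, and the member of each role with the smallest p. Hspa5, Hsp90b1, Edem2, Edem3, Xbp1, Creld2, Pdia3, Sdf2l1, Syvn1, Mbtps1, Ero1l and Dnajc3 were named after their values were seen. Relations with the number of genes detected and between pairs were also computed over the 13759 genes with a count in every library, an addition made after the values had been seen.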

Additional observations from a re-analysis of the deposited data

Results flagged for a closer look

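In 9 of 105 groups tested, over 15 members, a single library lay far from the others of its group; chance alone flags about 1 in 20 groups. Edem1 reached 112.5 CPM in B6D2F1N standard anterior replicate 1, the next being 67.1. This library, of the mouse with no Xist count, also had the highest Creld2 (97.6 CPM, next 44.4) and Xbp1 (180.4 CPM, next 50.8) of its group. Hyou1 reached 59.4 CPM in B6D2F1N enriched anterior replicate 4, the next being 24.8. In C57BL/6J enriched posterior replicate 3 Creld2 was 102.1 CPM (next 29.9) and Xbp1 221.1 CPM (next 37.2). Hspa5 was lowest in C57BL/6J enriched posterior replicate 2, at 1051 CPM (next 1886). Atf6 was 61.1 CPM in B6D2F1N standard posterior replicate 4 (next 47.2), and Xbp1 324.4 CPM in B6D2F1N enriched posterior replicate 2 (next 55.7).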

How the results depend on the processing

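Of 287 alternatives to counts and correlations 238 left the result as it was. DESeq2 called 2 members in each strain comparison within 1 housing and in the anterior one over both housings, 3 between portions in B6D2F1N and 2 with housing in anterior C57BL/6J. With library totals only, 2 members were called between strains in standard posterior and in anterior over both housings, and 0 in enriched anterior and between portions in B6D2F1N. Without a minimum count there were 2 in each of these 4, and 5 with housing in anterior C57BL/6J. With 1 fit for 4 groups there were 2 in standard posterior and 1 in enriched posterior. The term for genes detected gave 1 in enriched posterior and 2 in anterior over both housings. Without the mouse with no Xist count, 0 were called in standard anterior. Without the replicate block, 0 members were called between portions in B6D2F1N, and the block changed no count in C57BL/6J. The shares over all genes called by DESeq2 and under the other settings are not given here. A higher count of members under such a setting therefore cannot be read as a result about the members.

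Leaving out 1 mouse gave 0 to 1 members in standard anterior, 1 to 2 in standard posterior, 0 to 0 in enriched anterior, 1 to 2 in anterior over both housings, 1 to 2 and 0 to 2 between portions in C57BL/6J and B6D2F1N, and 0 to 4 with housing in posterior C57BL/6J. Hyou1 between portions in C57BL/6J changed sign, to 0.058 by library totals, 0.036 without the replicate block, 0.0414 with genes detected, and −0.158 to 0.0492 without 1 mouse. By library totals, Edem1 with Hspa5 in the posterior portion fell to r = 0.49 and Hyou1 with Hspa5 to −0.0187. The causes were not tested.

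Within 1 housing, with 2 to 6 mice a group, simulated 2-fold changes were recovered for 17 of 100 genes in the standard posterior strain comparison, so differences of that size can be missed.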
